A study of Mus musculus with 2 samples.

Results

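Replication and mitosis genes encode the machinery that copies the chromosomes and divides them between daughter cells. The 41 genes described here were chosen by name as known members of that machinery. Each name matched a protein-coding gene of the GENCODE M21 annotation, so that all 41 were found among 22028 protein-coding genes and 55536 genes of any class. They carried 221 transcript models. By role, 18 belong to the passage from G1 into S phase (licensing, DNA synthesis and nucleotide supply, S-phase entry) and 23 to G2 and mitosis. The levels were measured by total RNA-seq, after depletion of ribosomal RNA, in the nucleoplasmic fraction of primary macrophages derived from the bone marrow (BMDM) of C57BL/6J mice. Every cell in the experiment had received Lipid A, the part of bacterial lipopolysaccharide that stimulates macrophages, at 100 ng/ml for 40 min. The group consisted of 2 libraries, biological replicates 1 and 2, with the same donor identifier, so that the spread between them may be partly technical; the labels record neither age nor sex. The starting RNA was 1 µg for replicate 1 and 500 ng for replicate 2, and this difference cannot be told apart from the replicate. Unstimulated cells and other fractions were not analysed here, and the values are therefore levels, not responses.

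Before S phase, the ORC, Cdc6 and Cdt1 proteins load the MCM helicase onto origins of replication, and E2F transcription factors switch on the genes of licensing and DNA synthesis. Genes of G2 and mitosis are repressed in resting cells by the DREAM complex, which reads the cell cycle homology region (CHR) in their promoters, and are activated in dividing cells by B-MYB and FOXM1. Macrophages grown from bone marrow divide under the growth factor M-CSF while they mature, and stimulation through the lipopolysaccharide receptor is known to stop their division.

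The promoters of the G1/S and the G2/M genes held different words. RefSeq promoters of GRCm38.p6, from 250 bases before to 50 bases after the annotated start, existed for 35 of them (38 promoters); Ccna2, Mcm4, Gmnn, Ccne2, Tpx2 and Aurkb had none in the table. The words searched on both strands were TTTGAA for the CHR, CCAAT for the NF-Y box and TATAAA for the TATA box; for E2F they were the word TTCCCGC, the word TTGGCGC, the word TTCGCGC and the word TTGCCGC. The CHR word stood in 15 of 21 promoters of G2/M genes (71.4%) and in 2 of 17 promoters of G1/S genes (11.8%). E2F words had the opposite distribution, with 10 of 17 promoters of G1/S genes (58.8%) and 3 of 21 of G2/M genes (14.3%). Among all 32851 promoters of the table, 17.9% held the CHR word and 9.57% an E2F word, and among the promoters of detected protein-coding genes 11.7% and 16.7%. The CCAAT word was common to both groups, at 11 of 17 and 18 of 21 promoters, against 37.4% of all promoters. The TATA word was in 0 of 38 against 13.6%. Among the promoters of detected protein-coding genes, 36.9% held the CCAAT word and 6.98% the TATA word. An E2F word overlapped a CCAAT word in 2 of the 38 promoters. These counts are of promoters and not of genes: E2f2, Mcm7 and Prc1 have 2 each. The promoters of Prc1 overlap, so that its CHR word may be counted more than once. A word match is a description of these windows and not a measured binding site.

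The following windows of 120 bases, which end at the base before the RefSeq start and hold no annotated exon, are shown because they carry these words; they were picked for them among 17 such windows. Mcm6 (chromosome 1, chr1:128359706-128359825, minus strand) and Rrm1 (chr7:102441575-102441694, plus strand) are G1/S genes, and Mki67 (chr7:135716380-135716499, minus strand), Top2a (chr11:99024190-99024309, minus strand) and Kif11 (chr19:37376262-37376381, plus strand) are G2/M genes. Each runs 5′ to 3′ on the gene's strand, and capitals mark the words of the CHR (TTTGAA or its complement), NF-Y and E2F.
Mcm6: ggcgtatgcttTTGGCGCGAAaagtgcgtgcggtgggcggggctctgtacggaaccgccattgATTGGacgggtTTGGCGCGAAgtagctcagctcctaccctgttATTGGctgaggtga
Rrm1: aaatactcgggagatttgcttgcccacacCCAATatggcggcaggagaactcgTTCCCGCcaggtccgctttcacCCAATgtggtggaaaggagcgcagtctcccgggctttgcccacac
Mki67: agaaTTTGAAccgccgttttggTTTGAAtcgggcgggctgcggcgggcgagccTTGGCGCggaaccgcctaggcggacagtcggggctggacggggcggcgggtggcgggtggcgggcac
Top2a: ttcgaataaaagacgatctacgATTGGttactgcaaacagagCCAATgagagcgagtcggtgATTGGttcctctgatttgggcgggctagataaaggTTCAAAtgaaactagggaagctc
Kif11: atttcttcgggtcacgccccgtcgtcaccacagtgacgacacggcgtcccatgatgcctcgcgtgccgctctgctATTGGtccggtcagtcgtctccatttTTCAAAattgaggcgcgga
The Mcm6 window holds 4 E2F matches in 2 runs, because words on opposite strands overlap, and 2 CCAAT words. Rrm1 has 1 E2F and 2 CCAAT words. Mki67 has 2 CHR words and 1 E2F word, and Top2a has 1 CHR word behind 3 CCAAT words. Kif11 has 1 of each of the CHR and CCAAT words.

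The replication and mitosis genes were present at low levels in the nucleoplasm, apart from a few. Levels are given in TPM, a share of all transcripts in the library that is corrected for transcript length, and detected means at least 1 TPM in both replicates. They come from the authors' alignment-based tables unless the FASTQ-derived tables, a further quantification of the same libraries, are named. By this measure 17 of the 41 genes (41.5%) were detected, against 40.0% of all protein-coding genes. At 10 TPM in both replicates, 5 of the 41 (12.2%) passed, against 14.3%. Their median level was 1.47 TPM in replicate 1 and 0.91 in replicate 2, compared with 0.38 and 0.25 for all protein-coding genes and 8.64 and 6.12 for the detected ones. Most of the genes were thus gathered around the threshold, with 22 between 0.5 and 2 TPM on average, 7 below and 12 above that range. At a threshold of 0.5 TPM, 30 of the 41 passed (73.2%, against 45.3% of protein-coding genes), and at 5 TPM only 6 did (14.6%, against 22.3%). Taken alone, replicate 1 had 28 of the 41 genes at 1 TPM or more (68.3%, against 43.6% of protein-coding genes) and replicate 2 had 18 (43.9%, against 40.4%). Of the 24 genes not detected, 12 reached 1 TPM in 1 replicate only. The deposited credibility interval lay above 1 TPM in both replicates for 15 genes, below it in both for 2, and contained it in both for 8. This interval belongs to a posterior mean TPM, a separate deposited estimate, and does not always hold the TPM given here. For Mcm2 in replicate 1 it ran from 1.85 to 4.67 TPM, against 1.74. These counts were not taken over all protein-coding genes. In bulk RNA of this kind, fewer dividing cells and less RNA per cell cannot be told apart.

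**Figure D1:**
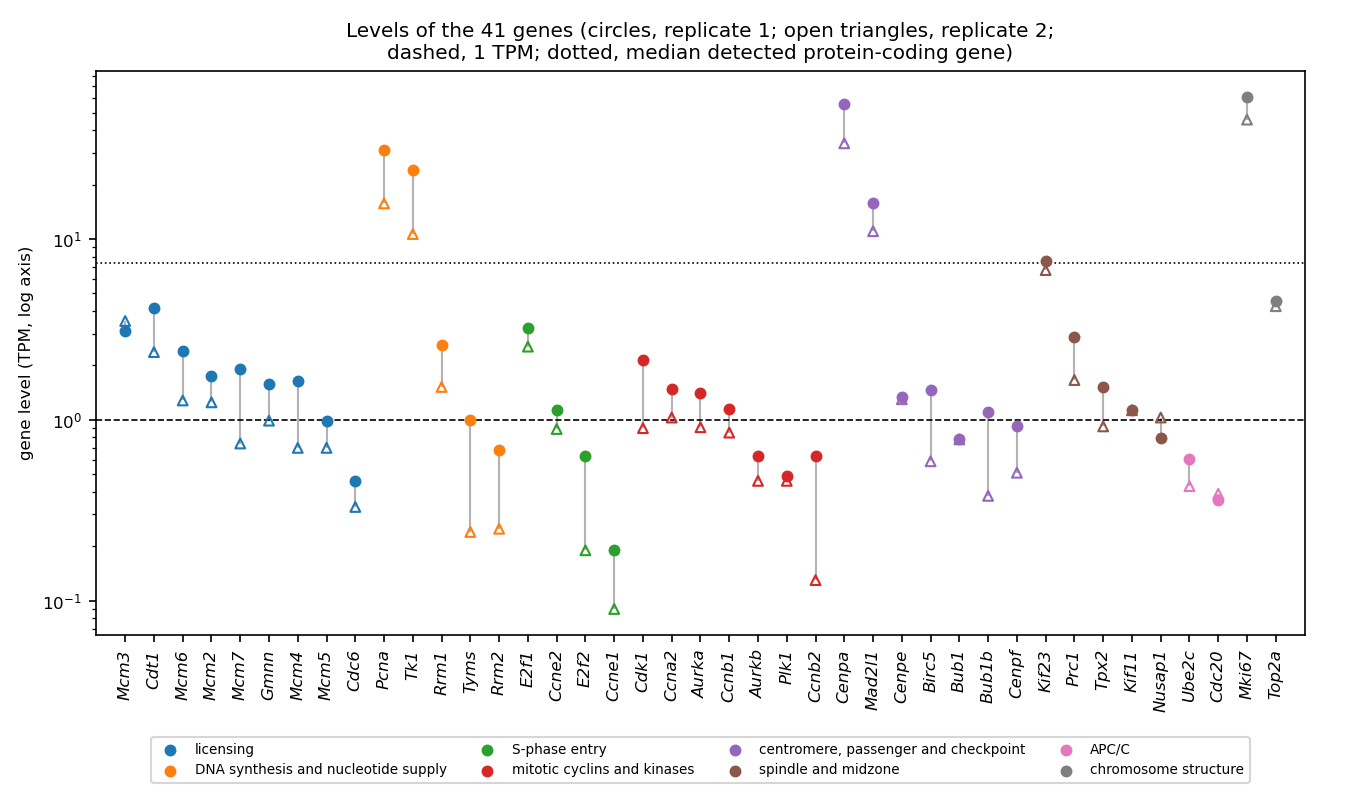
Level of each of the 41 genes (TPM, log axis) in replicate 1 (filled circles) and replicate 2 (open triangles), coloured by role, with 1 TPM dashed and the median detected protein-coding gene, 7.38 TPM, dotted. Mki67, Cenpa, Pcna, Tk1 and Mad2l1 lie above the dotted line in both replicates, and most others lie near or below 1 TPM.

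The highest gene was Mki67 (ENSMUSG00000031004, chromosome 7, 135689784 to 135716361, minus strand), which encodes the Ki-67 protein that coats mitotic chromosomes and is the usual marker of dividing cells. It had 61.0 TPM in replicate 1 and 45.7 in replicate 2, from 12811 and 12575 expected counts (the reads assigned to a gene by the authors' quantifier), a mean of 53.4 ± 10.8 (SD, n = 2), and ranked 731st of the protein-coding genes. Top2a, the topoisomerase that untangles sister chromosomes and the other member of the chromosome structure group, had 4.55 and 4.25 TPM. The level of Mki67 was 13.4-fold and 10.8-fold that of Top2a in the replicates, and 42.4-fold and 50.5-fold the median of the other 40 genes. By the FASTQ-derived tables Mki67 was 7.35-fold and 7.38-fold Top2a. It alone held 24.6% and 28.7% of the summed TPM of the 41 genes and, with a long transcript, 62.2% and 64.9% of their expected counts. Nearly all of this level sat on the full-length model Mki67-201 (10061 bases), with 60.4 and 44.6 TPM. In the FASTQ-derived tables this model held 81.2% and 72.0% of the gene's TPM, and the 575-base model Mki67-202 had 6.13 and 8.18 TPM, against 0.61 and 1.11 by alignment. A locus of undecided class on the opposite strand, Gm45240, overlaps Mki67 over 674 bp and had 11.1 and 8.02 TPM, and how reads were assigned between the strands was not tested.

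Cenpa, the histone H3 variant that marks centromeres (ENSMUSG00000029177, chromosome 5, 30666777 to 30674830, plus strand), followed with 55.8 and 33.8 TPM from 2371 and 2093 expected counts. The ranges of Mki67 and Cenpa overlapped, although Mki67 was the higher in each replicate, by 1.09-fold and 1.35-fold. The checkpoint protein gene Mad2l1, which delays anaphase until all kinetochores are attached, had 15.9 and 11.0 TPM (ENSMUSG00000029910, chromosome 6, 66535390 to 66547220, plus strand). The remaining 5 genes of the centromere, passenger and checkpoint group were far below both. The kinetochore motor Cenpe had 1.33 and 1.30 TPM and was detected, with values that hardly differed. The survivin gene Birc5, whose product is part of the chromosomal passenger complex, had 1.47 and 0.59. Among the checkpoint kinases, Bub1 had 0.78 in both replicates and its paralog Bub1b 1.10 and 0.38. The kinetochore protein gene Cenpf was the lowest of the group by mean level, at 0.92 and 0.51 TPM. The group median was 1.06 ± 0.389 TPM, with 3 of 7 genes detected.

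DNA synthesis and nucleotide supply had the highest median of the groups of more than 2 genes, 2.06 ± 0.757 TPM, with 3 of 5 detected. The sliding clamp of DNA polymerase, Pcna (ENSMUSG00000027342, chromosome 2, 132249162 to 132253314, minus strand), had 30.9 and 15.7 TPM. Thymidine kinase, Tk1 (ENSMUSG00000025574, chromosome 11, 117815526 to 117826092, minus strand), had 24.0 and 10.7, a range that overlaps those of Pcna and Mad2l1. Tk1 was below Pcna in each replicate, and above Mad2l1 in replicate 1 but below it in replicate 2. The protein-coding locus Gm20708, at 2.40 and 2.81 TPM, covers all 10567 bp of Tk1 on the opposite strand, and its part in the level of Tk1 was not tested. The subunits of ribonucleotide reductase, the enzyme that makes deoxyribonucleotides, differed. The large subunit Rrm1 had 2.59 and 1.52 TPM and was detected, whereas the small subunit Rrm2 had 0.68 and 0.25 and its higher value lay below the lower value of Rrm1. Thymidylate synthase, Tyms, had 1.00 and 0.24 TPM.

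Among the 9 licensing genes 4 were detected, and the group median was 1.37 ± 0.530 TPM. The MCM subunits act as a ring with equal copies of each, but their mean RNA levels ran from 0.840 TPM for Mcm5 to 3.31 for Mcm3. Mcm3 had 3.09 and 3.52 TPM, and both of its values exceeded every value of the other subunits. In protein-coding models alone this order broke, with 2.18 and 1.83 TPM for Mcm3 and 2.40 and 1.28 for Mcm6. The deposited intervals of Mcm3 and Mcm2 also overlapped in replicate 1 (2.53 to 4.42 and 1.85 to 4.67 TPM). Mcm6 had 2.41 and 1.28 and Mcm2 1.74 and 1.25, and both were detected. The other subunits passed 1 TPM in 1 replicate at most: Mcm7 had 1.90 and 0.74, Mcm4 1.65 and 0.70, and Mcm5 0.98 and 0.70 TPM. From Mcm6 down to Mcm5, the ranges of neighbours in the order of means overlapped. Within each replicate Mcm6 was above Mcm2 and Mcm7 above Mcm4, although the deposited intervals of both pairs overlapped. Mcm2 and Mcm7 changed places between replicates, and Mcm4 and Mcm5 were equal in replicate 2. Of the loading factors, Cdt1 was detected at 4.15 and 2.37 TPM, while Cdc6 had 0.46 and 0.33, the lowest of the group. Gmnn, which encodes the Cdt1 inhibitor geminin, had 1.57 and 0.99. Cdt1 shares 5540 bp on its own strand with Gm20388, a locus listed at 3.72 and 5.54 TPM, so its level is uncertain.

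Of the 4 genes of S-phase entry only the transcription factor E2f1 was detected, at 3.22 and 2.54 TPM. Its relative E2f2 had 0.63 and 0.19. The E-type cyclins activate Cdk2 at the end of G1. Ccne2 had 1.14 and 0.89 TPM, and it overlaps Ints8, which had 12.4 and 11.0, over 5622 bp on the opposite strand. Ccne1 was the lowest of all 41 genes by alignment, with 0.19 and 0.09 TPM from 6 and 1 expected counts. The FASTQ-derived tables gave it 1.14 and 1.04 TPM, and Rrm2 was the lowest there. The median of the group was 0.713 ± 0.244 TPM.

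The mitotic cyclins and kinases had a median of 1.00 ± 0.212 TPM, and only Ccna2, the cyclin of S and G2 phase, was detected, at 1.49 and 1.03. Cdk1, the kinase that drives entry into mitosis, had the highest mean of the group with 2.14 and 0.90 TPM, but fell short in replicate 2. The FASTQ-derived tables reversed this, with 0.80 and 0.60 TPM for Ccna2 and 3.78 and 2.51 for Cdk1. Its partner cyclins were lower, with 1.15 and 0.85 TPM for Ccnb1 and 0.63 and 0.13 for Ccnb2, the lowest of the group. The Aurora kinases were at 1.41 and 0.91 (Aurka, at spindle poles) and 0.63 and 0.46 (Aurkb, in the passenger complex). The Polo-like kinase Plk1 had 0.49 and 0.46. For these 7 genes, the expected counts ran from 5 to 76.5, so that differences among them were hardly resolved.

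In the spindle and midzone group 3 of 5 genes were detected, and its median was 1.32 ± 0.269 TPM. The midzone kinesin Kif23 had 7.59 and 6.73 TPM, above its partner bundling protein Prc1 at 2.88 and 1.66. Prc1 overlaps Rccd1 (5.73 and 2.48 TPM) over 21810 bp on the opposite strand, which leaves its level uncertain. Kif11, the motor that separates spindle poles, had 1.13 in both replicates. The microtubule-binding proteins Tpx2 and Nusap1 were not detected, with 1.51 and 0.92 TPM for Tpx2 and 0.79 and 1.03 for Nusap1, the lowest of the group. Neither gene of the anaphase-promoting complex pathway was detected: the ubiquitin-conjugating enzyme Ube2c had 0.61 and 0.43 TPM, and the activator Cdc20 had 0.36 and 0.39.

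The 18 G1/S and the 23 G2/M genes were not separated by level beyond the spread between replicates. Their medians were 1.32 ± 0.534 and 1.12 ± 0.297 TPM, with 8 and 9 genes detected. The difference of their median log2(TPM + 1) was 0.21 in replicate 1 and 0.02 in replicate 2, a mean of 0.12 ± 0.13. Among detected genes alone it was -0.51.

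Other genes of the machinery had medians close to that of the 41 genes. Of 45 other replication genes 24 were detected (53.3%, against 40.0% of all protein-coding genes), and the list's median was 1.35 ± 0.410 TPM. The clamp loader subunit Rfc2 (34.8 and 25.7 TPM) and the origin recognition subunits Orc4 (24.8 and 17.2) and Orc3 (20.3 and 14.2) were the highest, and Cdc45, Chaf1a, Clspn and Dut were among the 21 not detected. Of 49 other mitosis genes 16 were detected (32.7%, below the share of all protein-coding genes), and their median was 0.840 ± 0.368 TPM. The condensin subunit Smc4 (13.8 and 9.25), the passenger protein gene Incenp (11.5 and 8.31) and the spindle protein gene Dlgap5 (8.92 and 4.82) led, and Anln, Aspm, Cdc25c, Cdca3 and Cdca5 were among the 33 not detected. The 30 regulators of the cycle were higher, with 22 detected (73.3%, against the same 40.0%) and a median of 3.55 ± 0.626 TPM. They were led by Cdkn1a, the gene of the CDK inhibitor p21, at 370.4 and 249.1 TPM, followed by the kinase gene Cdk6 at 73.5 and 43.0 and the retinoblastoma gene Rb1 at 39.8 and 30.2. Ccnd2, Cdkn2a, Cdkn2c, Cdkn2d and E2f6 were among the 8 regulators not detected.

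**Figure D2:**
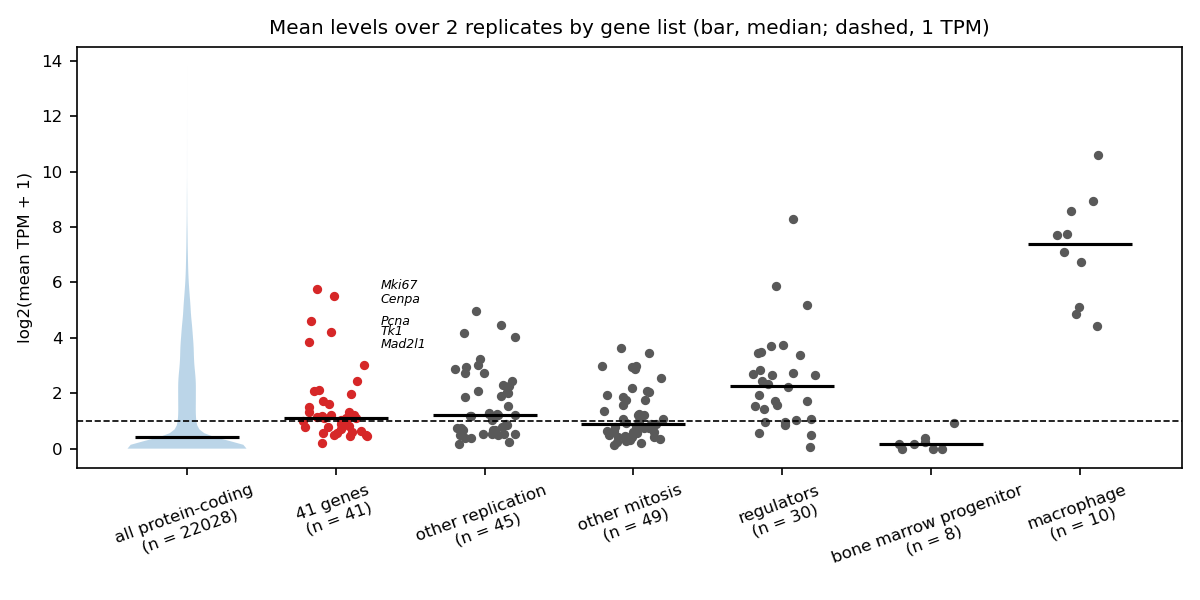
Mean level over both replicates, log2(mean TPM + 1), of the 41 genes (red), the 3 lists of other cell cycle genes and 2 marker lists (grey points), with all 22028 protein-coding genes as a violin; bars are medians and the dashed line is 1 TPM. The 41 genes and the other replication and mitosis genes gather near the dashed line, while the macrophage markers lie above it and the bone marrow progenitor markers below it.

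The labelled cell type was checked by its markers. Each of 10 macrophage markers passed 1 TPM in both replicates, and their median was 214 and 112 TPM, with a summed level of 3789 and 2529 TPM. Bone marrow progenitors are dividing cells that such a culture could still hold, and 0 of their 8 markers were detected, with summed levels of 1.87 and 1.37 TPM. By alignment, Cd34, Elane and Ms4a3 had 0 counts in both libraries, and the highest, Kit, had 0.91 and 0.90 TPM. The FASTQ-derived tables gave Cd34 0.43 and 0.54 TPM and Ms4a3 0.057 and 0.063 TPM. Of 39 markers of 7 other cell types, progenitors included, 2 were detected, both of the megakaryocyte list (Pf4 at 35.2 and 30.1 TPM, Gp9 at 1.24 and 1.02), and 12 had 0 counts. In the FASTQ-derived tables Gp9 fell short (1.07 and 0.99 TPM), while the T cell marker Cd3d (2.38 and 4.28) and the erythroid marker Alas2 (2.26 and 1.58) passed. How far cells of another type added to the 41 genes was not tested.

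The replicates were then compared gene by gene. TPM was lower in replicate 2 for 36 of the 41 genes (87.8%) and for 91.8% of detected protein-coding genes, whose median shift was -0.49 on the log2 scale. To set this general shift aside, expected counts were scaled by TMM, and the log2 ratio of replicate 2 over replicate 1 was taken for the 39 genes with a mean count of at least 10 (Ccne1 and Ube2c had fewer). The median ratio was -0.14, against 0.00 over all 14515 genes tested, whose 5th to 95th percentile ran from -0.84 to 0.66. Beyond 1.5-fold, 1 of the 39 genes (2.56%) was higher in replicate 2, against 6.57% of all genes tested, and 7 (17.9%) were lower, against 10%. The higher gene was Nusap1, with 53 and 88 expected counts and a ratio of 0.81. Cenpe, Bub1 and Kif11, whose TPM hardly differed between replicates, had ratios of 0.19, 0.20 and 0.51 once the general shift was set aside. The lower genes included Ccnb2, with 18 and 5 counts (ratio -1.44), E2f2, with 61 and 25 (-1.13), and Mcm4, with 120 and 67 (-0.73). The others were Rrm2 (25 and 14 counts, -0.67), Aurkb (23 and 13, -0.65), Bub1b (62 and 37, -0.62) and Tk1 (586 and 362, -0.59).

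Most of these genes rested on few counts. With a mean count of at least 100, 17 of the 41 genes remained for comparison, of which 0 were higher and 1, Tk1, was lower beyond 1.5-fold, against 2.13% and 4.37% of all genes at that count, and the median ratio was 0.05. By role, 13 of 17 G1/S genes had a ratio below 0 (median -0.26), compared with 10 of 22 G2/M genes (median 0.09). At 100 counts these became 5 of 8 (median -0.19) and 3 of 9 (median 0.10). The median over all genes was -0.004, and -0.001 at 100 counts, while their share below 0 is not given here. Whether the roles differ was not tested. The best-measured genes were nearly equal between replicates, with ratios of 0.07 for Mki67, -0.08 for Cenpa and -0.18 for Mad2l1, while Pcna had -0.31.

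**Figure D3:**
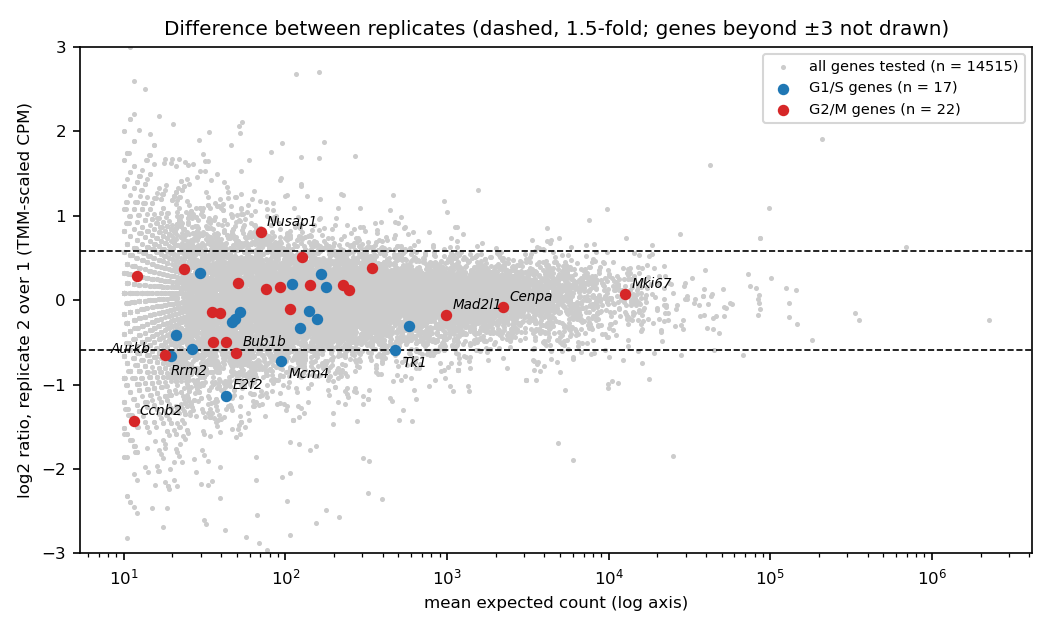
Log2 ratio of TMM-scaled CPM, replicate 2 over replicate 1, against the mean expected count (log axis), for all 14515 genes tested (grey), the 17 G1/S genes (blue) and the 22 G2/M genes (red); dashed lines mark 1.5-fold. The genes past the lines have few counts apart from Tk1, and Mki67, Cenpa and Mad2l1 lie close to 0.

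Nuclear RNA can hold transcripts whose introns have not been removed, and the annotation lists some such forms as retained-intron models. Of the 41 genes, 29 have at least 1 of these models (79 models in all). In those 29 genes, retained-intron models took 45.3% and 44.2% of the summed TPM in the replicates, 44.8% ± 0.740, compared with 35.1% ± 0.757 over all 9119 protein-coding genes with such a model. This share came mostly from Cenpa and Tk1, and without them, an alternative chosen after seeing the data, it was 27.5%. Of the 14 detected genes with such a model, 2 (14.3%), again Cenpa and Tk1, passed 50% of gene TPM in both replicates. Among all detected protein-coding genes with such a model, 12.6% did. The median over those 14 genes was 26.9% and 23.6%, against 26.6% and 25.2%.

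In Tk1 the retained-intron share was 84.8% and 90.04%. Its longest such model, Tk1-202 (2490 bases), had 6.33 and 3.47 TPM, and its protein-coding model Tk1-201 had 3.65 and 1.06. In Cenpa the share was 55.8% and 59.5%, led by Cenpa-208 (3806 bases) at 21.3 and 15.5 TPM, with the protein-coding Cenpa-205 at 12.5 and 7.05. The FASTQ-derived tables gave shares of 86.2% and 89.0% for Tk1 and 63.3% and 66.0% for Cenpa. There 4 of the 14 genes passed 50%, with Cdt1 at 80.4% and 81.9% and Rrm1 at 81.5% and 73.7% in addition. Among all detected protein-coding genes with a retained-intron model, 19.0% passed. Cdk1, which was not detected, also passed 50% by TPM, with 64.2% and 62.2%, but had 2.92% and 0% in the FASTQ-derived tables. Counting TPM in protein-coding models alone, 15 of the 41 genes (36.6%) reached 1 TPM in both replicates, against 36.4% of protein-coding genes. Of the summed TPM of all 41 genes, 62.5% ± 2.98 lay in protein-coding models, and of their expected counts 85.4% ± 0.979. In 24 of the 41 genes the same model held over 50% of the TPM in both replicates. These include Ccnb2, which has only 1 model, and the count was not taken over all protein-coding genes.

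**Figure D4:**
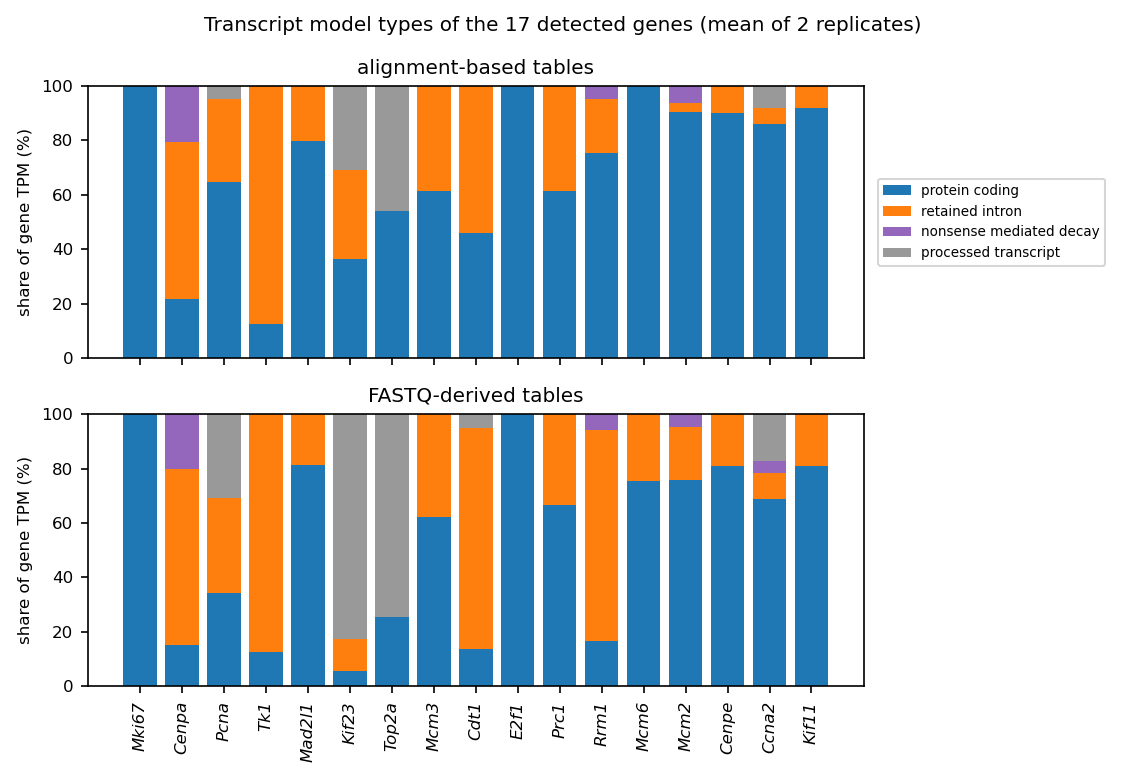
Share of gene TPM (%, mean over both replicates) in protein-coding (blue), retained-intron (orange), nonsense-mediated decay (purple) and processed-transcript models (grey) for the 17 detected genes, from the alignment-based tables (top) and the FASTQ-derived tables (bottom). Mki67 and E2f1 are wholly protein-coding in both, and Kif23, Top2a and Rrm1 differ between the tables. Tk1, Cenpa and Cdt1 are mostly retained-intron in both, although Cdt1 had 45.0% and 62.9% by alignment in the replicates.

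Mki67 and Cenpa were the highest genes in both the alignment-based and the FASTQ-derived tables, and Kif23, the sixth by alignment, followed them in the FASTQ-derived tables. The FASTQ-derived mean was lower for 30 of the 41 genes and higher for 11, while the median over detected protein-coding genes was 7.42 TPM by alignment and 5.19 in the FASTQ-derived tables. The 3 genes that were lower by most on the log2(TPM + 1) scale were Cenpa, Mki67 and Mad2l1, whose FASTQ-derived values were 26.2 and 20.4, 32.6 and 29.3, and 8.96 and 7.17 TPM. Mki67 remained the highest gene, at 32.9-fold and 30.8-fold the median of the other 40. The 3 genes that were higher by most were Ube2c, Tyms and Kif23. Ube2c had 3.53 and 2.16 TPM, with 158 and 136 estimated counts where the alignment-based table gave 10 and 9. Tyms had 3.40 and 2.79 TPM, nearly all on Tyms-201, which had 492 and 606 estimated counts against 7.35 and 0 by alignment. Kif23 had 18.6 and 17.5 TPM, of which the short processed transcript Kif23-202 (632 bases) held 15.0 and 13.0; by alignment this model had 0 counts in both libraries. In all, 26 of the 41 moved by more than the SD between replicates in the FASTQ-derived tables. The general fall in level was not set aside in this count. Bub1 and Kif11 had an SD of 0, so that any change counted. Neither this count nor that of lower and higher genes is given here over all protein-coding genes. In the FASTQ-derived quantification, 19 of the 41 genes (46.3%) were detected, against 41.4% of protein-coding genes. Of the 19, 13 were detected by alignment too. The 6 detected there only were Cdk1, Tyms, Ube2c, Birc5, Tpx2 and Ccne1, and the 4 detected by alignment only were Mcm2, Ccna2, Cenpe and Kif11.

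**Figure D5:**
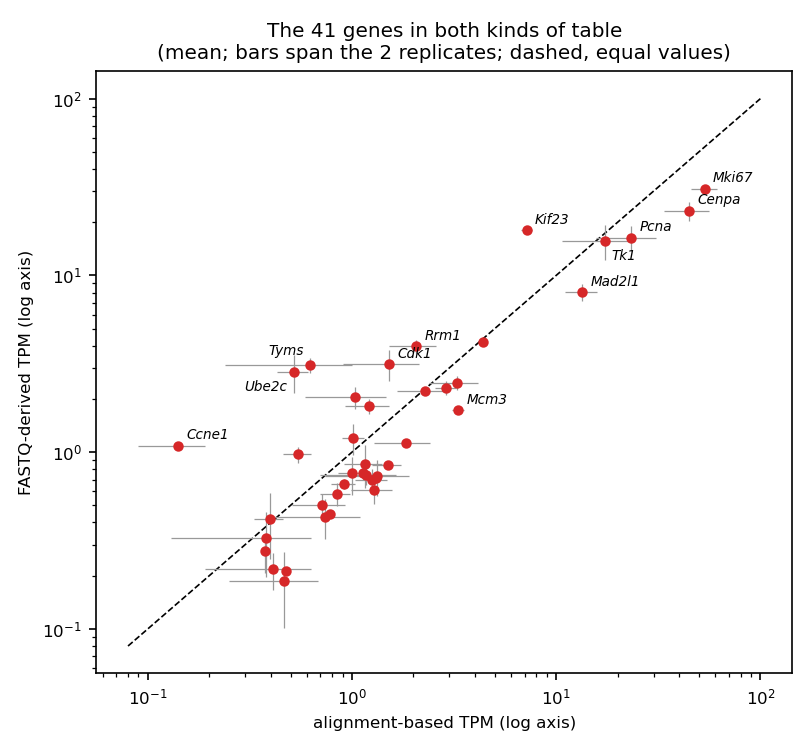
Mean TPM of the 41 genes in the FASTQ-derived tables against the alignment-based tables (both axes log), with bars spanning both replicates and the dashed line marking equal values. Mki67, Cenpa and Mad2l1 lie below the line, and Ube2c, Tyms and Kif23 lie well above it.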

How the data were processed

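Total RNA-seq of 2 libraries (biological replicates 1 and 2 of 1 group) was analysed from the gene and transcript tables the authors deposited for mm10 and GENCODE M21, per the file headers and notes. The authors' alignment-based tables give expected counts, TPM, FPKM and a posterior mean TPM with bounds of a credibility interval, and the deposited FASTQ-derived tables give estimated counts and TPM. Which aligner and quantifiers were used, and whether strand was read, is not given in the sources used here. Deposited totals were 19630046 and 18434601 expected counts, of which 0.672% and 0.196% belonged to rows that name no gene and were left out. TPM is scaled over all features, so it moves with abundant short RNAs. Intervals cover counting and read assignment only.

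With 1 group there was no contrast and no p-value; values are means ± SD over both replicates. Replicate ratios used rounded expected counts, edgeR 4.0.16 (TMM, prior count 2) in R 4.3.3, over genes with a mean count of at least 10, and were tested on simulated data. DESeq2 1.42.0 size factors, other thresholds, units and filters were alternatives. Promoter sequences came from RefSeq (GRCm38.p6), and coordinates are 1-based. The genes and lists were chosen with earlier results of these data known. All 41 genes were given a level, and other lists by their 3 highest and up to 5 undetected genes in alphabetical order, of which 1 is not reported here. Genes past 1.5-fold, genes over 50% retained-intron and the 3 that differed most between tables in each direction were named.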

Additional observations from a re-analysis of the deposited data

How the results depend on the processing

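The number of the 41 genes detected (17) was 30 at 0.5 TPM, 6 at 5 TPM, 28 by posterior mean TPM (against 44.8% of protein-coding genes), 26 by FPKM (against 42.8%) and 35 with TPM rescaled without genes of effective length under 200 (against 48.3%), since such genes hold much of the total; with either replicate alone it ran from 18 to 28, against 40.4% and 43.6%. Their median level (1.19 TPM) was 1.63 by posterior mean, 3.73 after that rescaling and 2.88 over detected genes only, and 0.91 to 1.47 with either replicate alone. The G1/S minus G2/M difference (0.12) was -0.51 among detected genes, and 0.02 to 0.21 with either replicate alone. Genes over 1.5-fold higher in replicate 2 (1) numbered 0 at a mean count of 100, against 2.13% of all genes. They numbered 0 by TPM + 1, against 0.779%, and 0 at 2-fold. Genes lower (7) numbered 1 at a mean count of 100 (against 4.37%), 4 by FASTQ-derived counts (against 9.09%) and 2 at 2-fold. By TPM + 1, 10 were lower, against 23.9% of all genes. The share of all genes past 2-fold is not given here. The median ratio (-0.14) turned to 0.054 at a mean count of 100 and was -0.37 by TPM + 1, which keeps the general shift in TPM. The retained-intron share (44.8%) was 41.6% by expected counts, 43.5% by FASTQ-derived TPM, 29.6% over all 41 genes, 46.5% among detected genes and 27.5% without Cenpa and Tk1, and 44.2% to 45.3% with either replicate alone. All protein-coding genes with such a model had 24.4% by expected counts and 37.4% by FASTQ-derived TPM. With Cenpa alone left out, also after seeing the data, these shares of the genes described were 21.6% and 38.0%. Where no construction of the alternative shows it, the cause was not tested. With 23 genes under 100 expected counts in both libraries, depth limits the order of genes near 1 TPM. No replicate ratio exists with 1 replicate left out. No paired analysis was possible because there was only 1 group. Protein comparisons were planned but not run, as no protein sequences were used here.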

Other observations

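The factors that repress or activate these genes, chosen here by role and not by the naming rule, were mostly detected. Of the DREAM complex, the pocket protein genes Rbl2 and Rbl1 had 11.0 and 9.23 TPM and 4.47 and 2.93 TPM in replicates 1 and 2. The complex's repressor E2f4 had 5.86 and 4.73 and its partner Tfdp1 9.75 and 8.85. The core subunit genes Lin37, Lin54, Lin9 and Lin52 ranged from 1.39 to 6.47 TPM, and each was detected. Of the activators of mitotic genes, Foxm1 had 1.99 and 1.90 TPM and Mybl2, which encodes B-MYB, 1.12 and 0.76.

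Among cyclins and kinases of G1, Cdk4 had 13.3 and 11.5 TPM and Cdk2 7.45 and 4.78, whereas the D-type cyclins Ccnd1 (2.41 and 2.24), Ccnd3 (1.92 and 1.83) and Ccnd2 (1.21 and 0.84) lay near 1 to 2 TPM. E2f8, an E2F that represses, had 11.7 and 8.44 TPM. Its relative E2f7 had 0.48 and 0.36 TPM by alignment but 11.9 and 8.69 in the FASTQ-derived tables, so its level depended on the table. The inhibitor Cdkn1c was higher in replicate 2, with 2.54 and 6.32 TPM from 80 and 244 expected counts, and Cdkn1b, the gene of p27, had 12.2 and 11.6 TPM.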
